A study of Homo sapiens with 12 samples.

Results

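The 7 genes described here encode 2 routes by which calcium leaves a cell across its surface membrane. SLC8A1, SLC8A2 and SLC8A3 are the sodium-calcium exchangers of the plasma membrane (NCX proteins), which carry calcium out in exchange for sodium entering down its gradient and can run the other way when that gradient falls. ATP2B1, ATP2B2, ATP2B3 and ATP2B4 are the plasma-membrane calcium pumps (PMCA proteins), which use ATP and are activated by calmodulin. In neurons the exchangers clear large loads after activity and the pumps hold the resting level. The 7 were listed by family out of the 55765 gene symbols in the count files, and the list was selected on SLC8A1, whose transcript moved in opposite directions in the 2 experiments. The values of SLC8A1 are therefore a description with no test, and tests are given for the other 6 members. All 7 had enough reads to enter every comparison.

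The cells were SH-SY5Y, a human neuroblastoma line derived from SK-N-SH that extends neurites when given all-trans retinoic acid (ATRA). All 12 libraries came from cells given ATRA at 10 μM for 7 days. In the co-treatment experiment, hydrogen peroxide (H2O2) was present with ATRA throughout in 3 treated samples and absent from 3 controls. For pre-treatment, 3 samples had H2O2 for 72 h before ATRA and 3 controls had none. The unit of the H2O2 dose of 10 is mM in the deposited description and μM in the published methods. No undifferentiated cells were analysed here, the line is a tumour line, and the labels do not say whether replicates were separate cultures, so p-values measure only the spread between these samples, which may be technical.

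Genes held 27576276 to 98287391 counted reads in a library. All 9 neuronal and noradrenergic markers, among them TUBB3, MAP2 and DBH, exceeded 1 CPM (the count relative to the library's TMM-scaled total, a unit in which libraries of different depth can be compared) in every library, with a summed level of 2855 to 3785 CPM. Of the mesenchymal markers, 5 of 8 did so, with a sum of 192 to 431 CPM, and 2 of 5 glial markers, with a sum of 5.33 to 8.35 CPM. No muscle or blood marker exceeded 1 CPM in every library. Pre-treatment controls 1 and 2 stood apart from the other 10 libraries. They held 0.800 and 0.830 reads outside genes per counted read, against 0.200 in pre-treatment control 3 and 0.263 to 0.462 elsewhere, and 1.59% and 2.88% of their counted reads fell on loci of small structured RNAs, against 17.6% in control 3 and 5.04% to 15.1% elsewhere. Control 3 is absent from the published clustering of this experiment, so the pre-treatment comparison is given over the other 5 libraries and again over all 6. In bulk RNA, fewer cells of a kind and less RNA per cell cannot be told apart.

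Windows at listed starts, called promoters here, are shown for SLC8A1, ATP2B1 (start 1) and ATP2B4 as examples that differ in base composition. Each window runs from 250 bases before to 50 bases after a RefSeq start (table on GRCh38.p14), 5′ to 3′ on the gene's strand, and matched hg19 at 1 place. The 14 windows of the 7 members were searched on both strands for 6 motifs, and capitals mark the matches. The motif AGGTCA is a half-site bound by nuclear receptors, retinoic acid receptors among them. The antioxidant response core was searched as TGACNNNGC, to which stress-activated factors of the NRF2 family bind. The GC box was searched as GGGCGG, a site of SP1-like factors common in CpG-rich starts. The TATA box was searched as TATAAA, the element that places the start in some tissue-restricted genes. The E-box was searched as CACGTG, a site of helix-loop-helix factors, and the AP-1 motif, bound by FOS and JUN proteins, was searched as TGANTCA. SLC8A1 on chromosome 2 has 3 listed starts on the minus strand, at chr2:40739526-40739825, chr2:40679181-40679480 and chr2:40657395-40657694 (hg19). ATP2B1 start 1 is at chr12:90103094-90103393 on the minus strand and ATP2B4 start 1 at chr1:203595710-203596009 on the plus strand.
SLC8A1 start 1: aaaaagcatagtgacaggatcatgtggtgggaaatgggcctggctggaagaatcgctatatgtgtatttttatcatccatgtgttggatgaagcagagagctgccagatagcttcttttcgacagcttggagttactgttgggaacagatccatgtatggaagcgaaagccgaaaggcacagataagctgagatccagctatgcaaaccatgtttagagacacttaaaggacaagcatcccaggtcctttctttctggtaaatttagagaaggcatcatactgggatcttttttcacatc
SLC8A1 start 2: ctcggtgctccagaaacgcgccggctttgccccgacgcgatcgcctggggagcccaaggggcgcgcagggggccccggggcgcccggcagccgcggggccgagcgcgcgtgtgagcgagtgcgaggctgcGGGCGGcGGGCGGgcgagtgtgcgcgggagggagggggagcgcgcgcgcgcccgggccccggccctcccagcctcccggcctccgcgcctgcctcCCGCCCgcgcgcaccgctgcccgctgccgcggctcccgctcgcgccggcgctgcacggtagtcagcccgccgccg
SLC8A1 start 3: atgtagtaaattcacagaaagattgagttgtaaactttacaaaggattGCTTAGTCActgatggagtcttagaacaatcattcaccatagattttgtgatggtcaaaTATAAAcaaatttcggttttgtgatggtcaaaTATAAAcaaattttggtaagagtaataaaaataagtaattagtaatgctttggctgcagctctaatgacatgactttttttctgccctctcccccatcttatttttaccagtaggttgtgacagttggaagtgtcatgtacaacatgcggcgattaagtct
ATP2B1 start 1: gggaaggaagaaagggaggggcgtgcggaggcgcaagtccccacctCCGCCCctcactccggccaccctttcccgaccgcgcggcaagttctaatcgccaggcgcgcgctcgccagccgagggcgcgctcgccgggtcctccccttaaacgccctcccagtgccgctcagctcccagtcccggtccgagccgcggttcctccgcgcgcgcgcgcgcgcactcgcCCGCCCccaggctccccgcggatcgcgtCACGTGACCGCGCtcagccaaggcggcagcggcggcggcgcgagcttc
ATP2B4 start 1: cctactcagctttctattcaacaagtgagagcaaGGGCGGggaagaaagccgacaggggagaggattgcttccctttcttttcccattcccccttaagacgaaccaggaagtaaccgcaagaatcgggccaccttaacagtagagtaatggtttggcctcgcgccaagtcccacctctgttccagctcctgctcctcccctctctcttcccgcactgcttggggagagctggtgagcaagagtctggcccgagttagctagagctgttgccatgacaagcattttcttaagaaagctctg

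The 3 SLC8A1 starts had unlike sequences. The first held 43.3% G and C with 4 CpG dinucleotides and no match to any of the 6 motifs. The second held 83.3% G and C with 55 CpG and 3 GC boxes. The third held 34.0% G and C with 3 CpG, 1 antioxidant response core and 2 TATA boxes. For comparison, the median over 35116 RefSeq promoters of this length was 58.7% G and C and 14 CpG, and the antioxidant core occurred in 13.3% of them, the TATA box in 11.5% and the GC box in 45%. In ATP2B1 start 1 (75.3% G and C, 48 CpG, 2 GC boxes), the E-box, which 7.26% of promoters hold, overlapped the antioxidant core by 2 bases. ATP2B4 start 1 (53.3% G and C, 9 CpG) held 1 GC box. In windows not shown, G and C made up 79.3% in ATP2B1 start 2, 71.3% in SLC8A2 and 75.7% in ATP2B3. They made up 49.7% and 64.3% in SLC8A3 starts 1 and 2, and 76.7%, 52.3%, 74% and 74% in ATP2B2 starts 1 to 4. Some members that fell after pre-treatment without control 3 thus also had windows rich in G and C. A link between composition and response was not tested. Of the other windows, only ATP2B2 start 2 held an AGGTCA half-site, found in 13.8% of promoters, and it also held an antioxidant core. No window of the 7 genes held the AP-1 motif, which 7.71% of promoters hold. In SLC8A1 start 3 and ATP2B2 start 2, the bases just before the listed start are rich in C and T and end in AG. The end of an intron reads the same way, and whether these windows are promoters was not tested. Gene-level counts do not show which start was used, and a match is a description of the letters only.

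**Figure D1:**
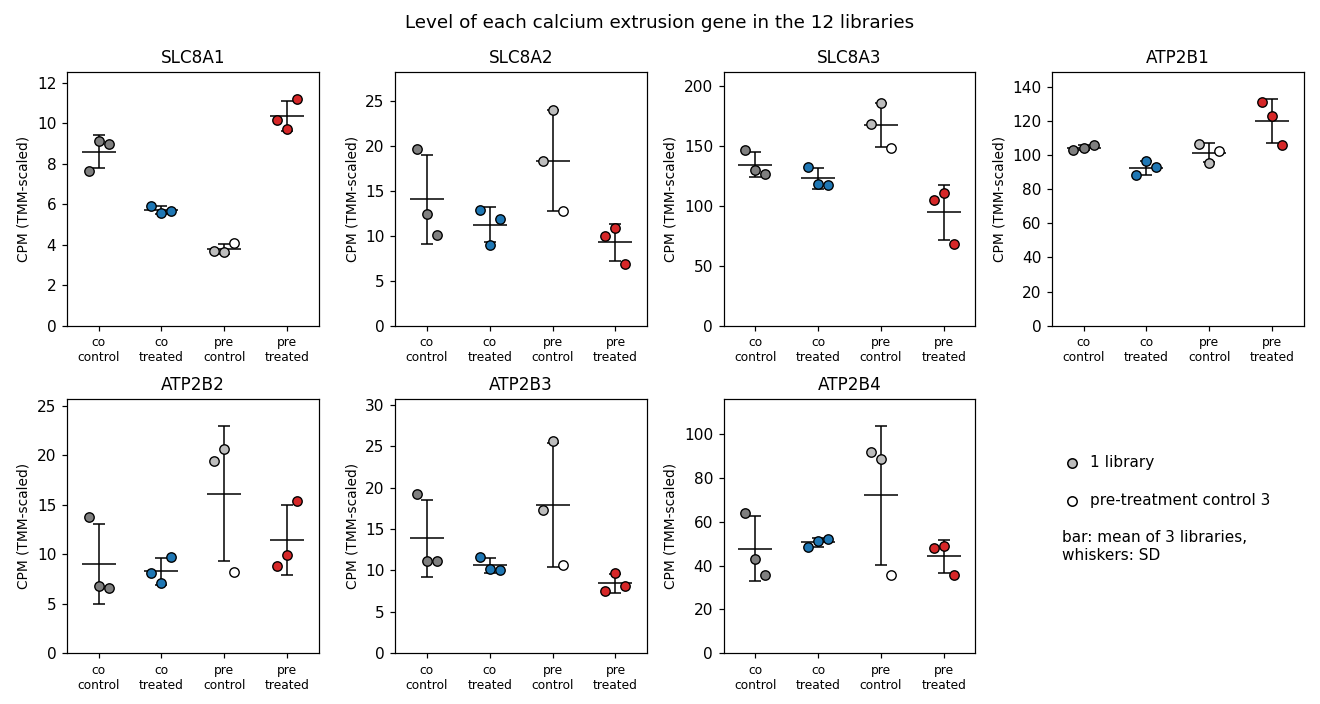
Level of each gene in CPM (TMM-scaled, linear axis from 0) in every library, by group, with the mean and SD of 3 libraries; the open circle is pre-treatment control 3. SLC8A1 is the one panel in which the treated libraries lie below the controls on the left and above them on the right, and in the panels of SLC8A2, SLC8A3, ATP2B2, ATP2B3 and ATP2B4 the open circle lies below the other pre-treatment controls.

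SLC8A1 (chr2:40324410-40838193, minus strand, hg19) encodes NCX1, the exchanger best known from heart muscle and also present in neurons. After co-treatment it was lower in every treated library than in every control. Its level was 7.65, 9.13 and 8.98 CPM in co-treatment controls 1 to 3. Its level was 5.93, 5.57 and 5.68 CPM in the treated libraries. The log2 fold change (log2FC, treated over control) was -0.58, with a standard error of 0.17. In the pre-treatment experiment the order was the opposite. Controls had 3.71, 3.62 and 4.09 CPM and treated libraries 10.19, 9.74 and 11.2 CPM, a log2FC of 1.53 (SE 0.18) without control 3 and of 1.45 (SE 0.20) with it. Control 3 thus lay with the other controls for this gene. With scaling by library size alone, under which the median log2FC of all genes in this comparison was -0.21 against 0.01 with TMM, the pre-treatment log2FC of SLC8A1 was 1.31. The difference of the responses (pre-treatment minus co-treatment) was 2.06 on the log2 scale over 11 libraries and 2.01 over 12.

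The controls of the 2 experiments also held different amounts of SLC8A1, 8.59 ± 0.815 CPM (SD, n = 3) in co-treatment and 3.81 ± 0.247 CPM (SD, n = 3) in pre-treatment, and treated cells of the latter, at 10.4 ± 0.748 CPM (SD, n = 3), reached above the former. Levels were not compared between experiments by a test, because the labels do not say that they were run side by side. Raw counts of SLC8A1 were 167 to 975 in a library. SLC8A1-AS1, a non-coding transcript from the other strand that shares 2040 exonic bases with SLC8A1 in the annotation used here, had 0 to 15 counts in a library. Muscle markers summed to 1.23 to 3.23 CPM in pre-treated cells and to 0.426 to 0.922 CPM in their controls, with DES, MYH6 and MYH7 at no more than 0.0291, 0.0177 and 0.249 CPM in any library. The other 2 of the 5 markers reached 1.52 CPM (TNNT2, pre-treatment log2FC 4.06) and 1.59 CPM (ACTN2, log2FC 0.78), so both stood higher in pre-treated cells along with SLC8A1, and the part of the muscle markers in the SLC8A1 values was not tested.

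Among 24406 genes, those whose log2 CPM followed that of SLC8A1 most closely over the 12 libraries were RBM25 (Pearson r = 0.931), CREBZF (0.915), SLC27A2 (0.910), RIMKLB (0.909) and ARGLU1 (0.908). These are descriptions over 12 points that share experiments and libraries. RBM25 had means of 150.7 CPM in co-treatment controls, 135 in co-treated, 110 in pre-treatment controls and 172 in pre-treated cells. ARGLU1 had means of 161, 135, 97.3 and 182 CPM in the same groups. Both had their group means in the order of those of SLC8A1, over a narrower range, while SLC27A2 was near the limit of counting, with group means of 0.0744 to 0.461 CPM.

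SLC8A2 (chr19:47931274-47975150, minus strand) encodes NCX2, an exchanger of brain. It fell in the pre-treatment experiment when control 3 was left out, and its co-treatment values did not pass the test. Co-treatment controls had 19.64, 12.4 and 10.1 CPM and treated libraries 12.8, 9.02 and 11.9 CPM, which overlap. The log2FC was -0.33 (SE 0.23, adjusted p = 0.808 by edgeR's quasi-likelihood test over all genes, as for all adjusted p-values below). Pre-treatment controls had 18.3, 24.03 and 12.8 CPM and treated libraries 10.04, 10.9 and 6.92 CPM. Every treated library was below every control. Its log2FC was -1.16 (SE 0.22, adjusted p = 0.00812) over 5 libraries, a call lost without control 2 (adjusted p = 0.0802), and -0.98 (SE 0.28, adjusted p = 0.320) over 6.

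SLC8A3 (chr14:70510932-70656197, minus strand) encodes NCX3, found in brain and skeletal muscle, and was the exchanger with the most reads in these cells. After co-treatment it had 146.7, 130.2 and 127 CPM in controls and 133, 119 and 118 CPM in treated libraries, with overlap and a log2FC of -0.13 (SE 0.12, adjusted p = 0.868). After pre-treatment its reads separated by group: 169, 186 and 148 CPM in controls and 105, 111 and 68.6 CPM in treated libraries. The fall had a log2FC of -0.88 (SE 0.19, adjusted p = 0.0134) over 5 libraries, while over 6 the log2FC was -0.82 (SE 0.22, adjusted p = 0.320). Without control 2 the call over 5 libraries was lost (adjusted p = 0.0944).

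Among the pumps, ATP2B1 (chr12:89981826-90103143, minus strand), the widely expressed PMCA1, varied least, with a highest level 1.49 times its lowest over the 12 libraries, where the other 6 genes spanned 2.58 to 3.47 times. Co-treatment controls had 103, 104 and 106 CPM and treated libraries 88.1, 96.6 and 92.8 CPM. The treated libraries were all below the controls, by a log2FC of -0.17 (SE 0.11, adjusted p = 0.789) that did not pass the test. Pre-treatment controls had 107, 95.5 and 102 CPM and treated libraries 131, 123 and 106 CPM. The groups overlapped by treated replicate 3, and the log2FC was 0.28 (SE 0.13, adjusted p = 0.145) over 5 libraries and 0.24 (SE 0.16, adjusted p = 0.594) over 6. Without treated replicate 3, the log2FC of 0.32 passed the test (adjusted p = 0.0486). Its antisense neighbour, counted under the older symbol LINC00936, shares 148 exonic bases with it and had 3.94 to 7.25 CPM, against 88.1 to 131 CPM for ATP2B1, and the strand setting of the counting is not given in the sources used here.

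ATP2B2 (chr3:10365707-10749692, minus strand) encodes PMCA2, a pump of neurons and of the hair cells of the inner ear. Co-treatment controls had 13.7, 6.76 and 6.61 CPM and treated libraries 8.06, 7.04 and 9.75 CPM. One control was thus above all treated libraries and the others below them, with a log2FC of -0.13 (SE 0.27, adjusted p = 0.957). In the pre-treatment experiment, controls had 19.4, 20.6 and 8.23 CPM and treated libraries 8.81, 9.95 and 15.4 CPM. ATP2B2 fell over 5 libraries (log2FC -0.79, SE 0.23, adjusted p = 0.0399), but control 3 was lower than every treated library, and over 6 libraries the log2FC was -0.49 (SE 0.36, adjusted p = 0.638). The call over 5 libraries was also lost without control 1 (adjusted p = 0.115), control 2 (0.178), treated replicate 1 (0.117) or treated replicate 2 (0.116).

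ATP2B3 (chrX:152783100-152848397, plus strand) encodes PMCA3, a pump largely confined to the nervous system. In co-treatment, controls had 19.3, 11.2 and 11.1 CPM and treated libraries 11.7, 10.1 and 9.98 CPM. They overlapped, with a log2FC of -0.39 (SE 0.21, adjusted p = 0.719). For pre-treatment, controls had 17.3, 25.7 and 10.7 CPM and treated libraries 7.47, 9.68 and 8.07 CPM. ATP2B3 showed the steepest fall of the 6 tested genes over 5 libraries, by 1.33 on the log2 scale (SE 0.20, adjusted p = 0.00409), and the treated libraries remained below control 3, with a log2FC of -1.09 (SE 0.31, adjusted p = 0.320) over 6.

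ATP2B4 (chr1:203595960-203713209, plus strand) encodes PMCA4, a pump found in many tissues. Its co-treatment controls spanned 64.2, 43.1 and 35.7 CPM around treated libraries of 48.5, 51.3 and 51.99 CPM, with a log2FC of 0.09 (SE 0.18, adjusted p = 0.959). Its pre-treatment controls had 91.7, 88.9 and 35.6 CPM and treated libraries 48.1, 48.9 and 35.5 CPM. Controls 1 and 2 stood above all other libraries of the series, and control 3 was among the treated ones. Over 5 libraries ATP2B4 fell (log2FC -1.0, SE 0.15, adjusted p = 0.00382), and over 6 the log2FC was -0.70 (SE 0.34, adjusted p = 0.481).

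**Figure D2:**
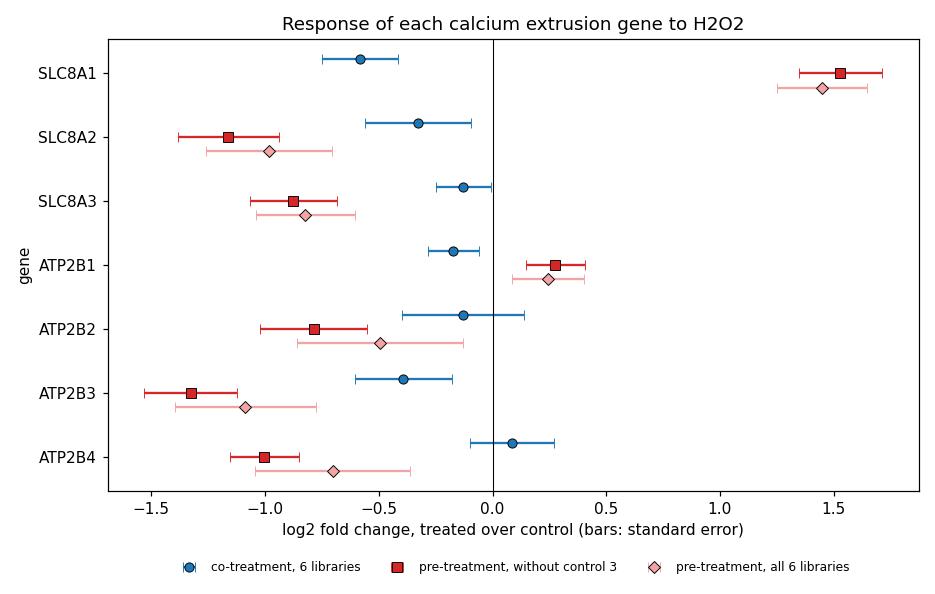
log2 fold change of treated over control with its standard error for each gene, in co-treatment (6 libraries) and in pre-treatment without control 3 and with all 6 libraries. SLC8A1 lies left of 0 in co-treatment (-0.58) and right of it in pre-treatment (1.53 and 1.45), and 5 of the other 6 genes lie left of 0 in pre-treatment with either set of libraries.

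Set against all genes, the co-treatment result was that 0 of the 6 tested members were called at an FDR below 0.05, where 0.598% of 22089 genes were called, and 0 of the 6 had an unadjusted p under 0.05, where 8.15% of all genes did. DESeq2, limma-voom and edgeR's exact test also called 0 of them. Among the 6, treated and control libraries did not overlap for ATP2B1 alone, where 14.0% of all genes did not overlap. The median log2FC of the 6 was -0.15, and that of all genes 0.00 to 2 decimals (-0.00095).

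After pre-treatment over 5 libraries, 5 of the 6 were called, all lower, where 26.1% of 26350 genes were called (12.8% lower and 13.2% higher). Some of these calls rested on control 2, without which 1 control remains. The log2FC of the 5 then ran from -1.02 (ATP2B4) to -0.74 (ATP2B2). Of all tested genes, 57.7% did not overlap between the groups, as did 5 of the 6. The median log2FC was -0.94 over the 6 and 0.01 over all genes. The balance of calls over all genes depended on the scaling, with 3489 higher and 3382 lower under TMM and 1384 higher and 4892 lower under library size alone, and the 5 members were called lower under both. Over all 6 libraries, 0 of the 6 members were called, where 0.0242% of 24743 genes were, and 3 of the 6 (SLC8A2, SLC8A3 and ATP2B3) had an unadjusted p under 0.05, where 11.2% of all genes did. These 3 kept treated below control in all libraries, where 16.4% of genes did not overlap.

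The position of control 3 separated the members. On a scale where 0 is the mean of controls 1 and 2 and 1 the treated mean (log2 CPM), it lay at 0.0870 for ATP2B1, 0.104 for SLC8A1, 0.274 for SLC8A3, 0.596 for SLC8A2, 0.734 for ATP2B3, 1.28 for ATP2B4 and 1.50 for ATP2B2. The median over the 6871 genes called without it was 1.13, and 87.9% of them lay beyond 0.5. SLC8A1 and SLC8A3 were thus nearer to the other controls than most called genes, and ATP2B4 and ATP2B2 beyond the treated mean. Reads outside genes (0.800 and 0.830 per counted read in controls 1 and 2, 0.200 in control 3, 0.343 to 0.462 in treated libraries) and small structured RNAs (1.59%, 2.88%, 17.6% and 13.3% to 15.1%) moved with the same split, and their part in the fall of the 5 members was not tested. Summed neuronal markers were 2855 to 3785 CPM in pre-treatment controls and 3102 to 3238 CPM in treated libraries, and mesenchymal markers 251 to 431 and 285 to 390 CPM. Single markers moved within these sums. The pre-treatment log2FC over 5 libraries ran from -1.72 (DBH) to 0.83 (STMN2) among the 9 neuronal markers and from -1.05 (COL1A1) to 3.11 (YAP1) among the 8 mesenchymal ones, with 2.66 for VIM and 2.48 for COL3A1, and the part of these in the fall of the 5 members was not tested either. With the small RNA loci left out, an alternative chosen after seeing the data, the 5 members were called lower. That fit compares controls 1 and 2 with the same treated libraries, so it does not test the part of these library differences.

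The difference between the 2 responses (an interaction term, fitted over 11 libraries) was called for 2 of the 6, where 8.02% of 25668 genes were called. For ATP2B4 the response was lower in pre-treatment (log2FC -1.0) than in co-treatment (0.09), a difference of -1.14 (SE 0.27, adjusted p = 0.0235), and for SLC8A3 the difference was -0.80 (SE 0.23, adjusted p = 0.0472). For ATP2B3 the difference was -0.99 (SE 0.33, adjusted p = 0.0719), for SLC8A2 -0.89 (SE 0.36, adjusted p = 0.127), for ATP2B2 -0.71 (SE 0.41, adjusted p = 0.264) and for ATP2B1 0.39 (SE 0.16, adjusted p = 0.132). Over all 12 libraries, 0 of the 6 were called, with adjusted p-values of 0.511 to 0.831, where 0.0287% of 24407 genes were, and 2 of the 6 had an unadjusted p under 0.05, where 8.94% of all genes did. The calls over 11 libraries rested on single libraries, pre-treatment controls 1 and 2 among them. Without co-treatment control 2 or co-treated replicate 3, 0 of the 6 were called, where 636 of 25545 and 730 of 25533 genes were. Without co-treatment control 1, 5 were called, where 4499 of 25515 genes were. With co-treatment control 3, co-treated replicate 1 or 2 or pre-treated replicate 1 left out, 1 was called. In those fits 686 to 2186 of 25463 to 26927 genes were called. Leaving out pre-treatment control 1 or 2 leaves 1 control. The difference was then -0.80 and -0.67 for SLC8A3, and -1.05 and -1.10 for ATP2B4. The adjusted p of ATP2B4 was 0.0774 without co-treatment control 2 and 0.0589 without co-treated replicate 3.

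**Figure D3:**
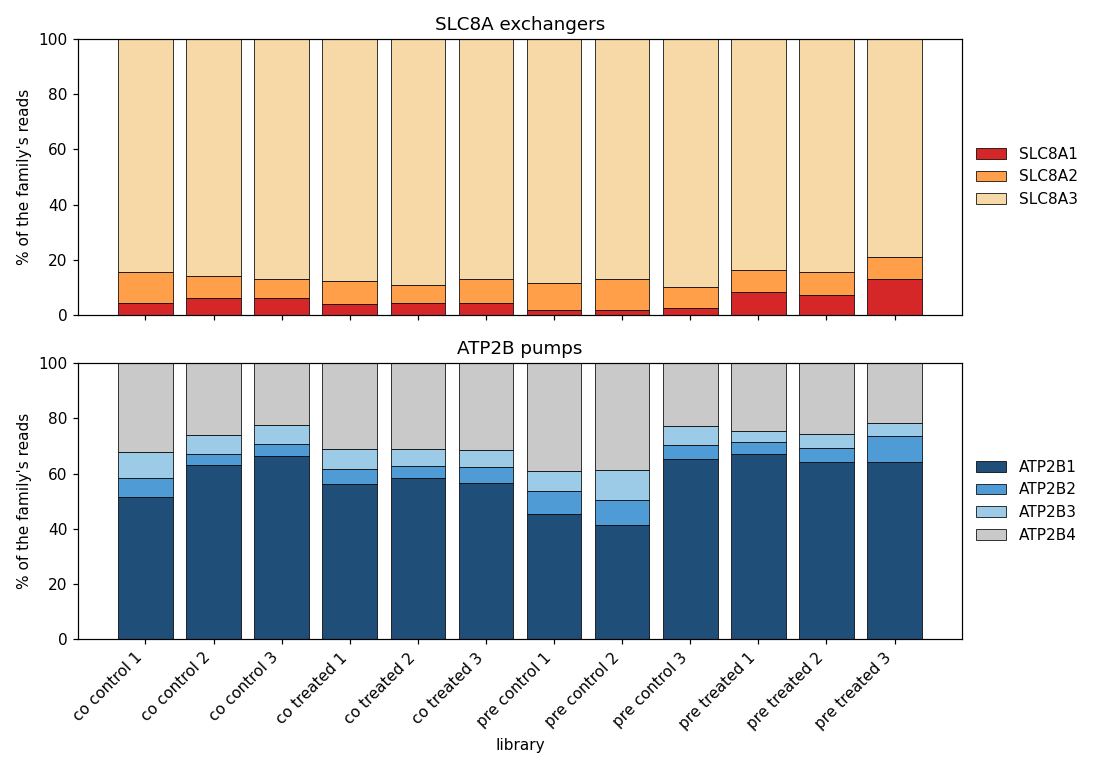
Share of each gene in the summed reads of its family (percent, stacked to 100) in each of the 12 libraries, exchangers above and pumps below. SLC8A3 holds 79.1% to 89.8% of exchanger reads throughout, and ATP2B1 holds less in pre-treatment controls 1 and 2 (45.3% and 41.4%) than in any other library.

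Shares within each family do not depend on how libraries were scaled. SLC8A1 made up 1.70% to 2.47% of exchanger reads in pre-treatment controls and 7.40% to 12.9% in pre-treated cells. It made up 4.40% to 6.15% in co-treatment controls and 3.91% to 4.20% in co-treated cells. These shares use the counts on which the list was selected, so they describe the response and do not test it. They also move with the reads of SLC8A2 and SLC8A3. SLC8A3 held 87.0% to 89.8% in pre-treatment controls and 79.1% to 84.3% in pre-treated cells, and SLC8A2 6.77% to 11.3% throughout. All exchanger reads summed to 165 to 213 CPM in pre-treatment controls and 86.7 to 132 CPM in pre-treated cells. In the pump family, ATP2B1 held 64.2% to 67.1% of reads in pre-treated cells, which overlapped its 65.2% in control 3 but not its share in controls 1 and 2, and ATP2B4 held 38.5% to 39.0% in controls 1 and 2, 22.7% in control 3 and 21.5% to 25.5% in pre-treated cells.

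Levels were compared between genes per kilobase of exon, in CPM per kilobase, using the exons of a current annotation on hg19 because the version behind the counts is not given. In co-treatment controls the order was SLC8A3 (14.7 to 17.02 over 3 libraries), ATP2B1 (10.8 to 11.1), ATP2B4 (3.76 to 6.76), SLC8A2 (1.92 to 3.73), ATP2B3 (1.06 to 1.84), ATP2B2 (0.645 to 1.34) and SLC8A1 (0.343 to 0.410). The ranges of ATP2B3 and ATP2B2 overlapped, and those of the other neighbours did not. By the length of the canonical transcript the order was the same. The range of ATP2B3 (1.64 to 2.85) then overlapped that of SLC8A2 (2.04 to 3.96) and not that of ATP2B2 (0.738 to 1.53). The order of the means was the same in co-treated cells and pre-treatment controls. In pre-treated cells SLC8A3 (7.96 to 12.9) and ATP2B1 (11.1 to 13.8) overlapped, and which was higher depended on whether the union of exons or the canonical transcript gave the length. ATP2B2 (0.858 to 1.50) also stood above ATP2B3 (0.714 to 0.925) by the mean in pre-treated cells, with overlap and under both lengths, the reverse of the other 3 groups. SLC8A1 had the lowest level per kilobase in all 4 groups under both lengths, up to 0.502 in pre-treated cells, with an exon length of 22286 bases that is far above the 5271 to 10469 of the others and that an older annotation may give as shorter.

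Levels of SLC8A2, SLC8A3, ATP2B3 and ATP2B4 rose and fell together over the 12 libraries (Pearson r of log2 CPM from 0.652 for SLC8A3 with ATP2B4 to 0.927 for SLC8A2 with ATP2B3), and SLC8A1 ran against each of the 4 (r = -0.770 with SLC8A3 to -0.600 with ATP2B4). ATP2B2, the other member that fell in pre-treatment without control 3, had r = 0.708 with ATP2B4, 0.615 with ATP2B3, 0.540 with SLC8A2 and 0.218 with SLC8A3. Its r with SLC8A1 was -0.373. ATP2B1 was the member positively related to SLC8A1 (r = 0.545). These r describe 12 points that share groups and libraries. Co-treatment control 1 had the highest levels of its group for SLC8A2, SLC8A3, ATP2B2, ATP2B3 and ATP2B4 and the lowest for SLC8A1 and ATP2B1, and also the most reads outside genes (0.370 per counted read against 0.284 to 0.285) and the least small structured RNA (5.31% against 9.87% to 12.9%) of the 3, and the part of these in its levels was not tested.

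Other genes of calcium handling were read from 7 lists of 48 genes, of which 40 had enough reads to be tested. After co-treatment 0 of the 40 were called, where 0.598% of all genes were, and 2 had an unadjusted p under 0.05 (8.15% of all genes did). After pre-treatment over 5 libraries 4 were called higher, 5 lower and 31 not, where 26.1% of all genes were called, with a median log2FC of 0.03 over the 40 and 0.01 over all genes. Over all 6 libraries 0 of the 40 were called, and 9 had an unadjusted p under 0.05 (11.2% of all genes did). The share of the lists called over 5 libraries, 9 of 40, was close to the background.

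Of the other calcium pumps, 2 of 5 fell. ATP2A2, the SERCA2 pump that fills the endoplasmic reticulum, had 343 ± 49.9 CPM (SD, n = 2) in controls 1 and 2, 129 CPM in control 3 and 135 ± 15.95 CPM (SD, n = 3) after H2O2 (log2FC -1.32, SE 0.14, adjusted p = 0.00111 over 5 libraries). Its relative ATP2A3 had 9.26 ± 1.58 CPM (SD, n = 2), 6.54 CPM and 4.92 ± 1.08 CPM (SD, n = 3) in the same order (log2FC -0.88, SE 0.23, adjusted p = 0.0268). The Golgi pump ATP2C1 did not pass the test (log2FC -0.12, adjusted p = 0.404). Among the potassium-dependent and mitochondrial exchangers, 1 of 3 tested fell over 5 libraries, SLC24A1 (log2FC -0.51, SE 0.13, adjusted p = 0.0251). It had 26.6 ± 0.791 CPM (SD, n = 2) in controls 1 and 2, 18.7 CPM in control 3 and 18.3 ± 1.20 CPM (SD, n = 3) after H2O2. Over 6 libraries its adjusted p was 0.488. The mitochondrial exchanger SLC8B1 had a log2FC of 0.00466 (adjusted p = 0.988).

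The sodium pump sets the gradient that drives the exchangers. Of its 5 genes tested, 2 were called lower after pre-treatment over 5 libraries and 3 were not called. ATP1B2, a beta subunit of it with few reads, fell after pre-treatment, from 2.54 ± 0.416 CPM (SD, n = 2) in controls 1 and 2 to 0.553 ± 0.118 CPM (SD, n = 3) after H2O2 (log2FC -2.18, SE 0.30, adjusted p = 0.00263). Its level in control 3 was 0.601 CPM. The beta subunits ATP1B1 (log2FC 0.19, SE 0.16, adjusted p = 0.411) and ATP1B3 (log2FC 0.33, SE 0.11, adjusted p = 0.0535) were not called. For ATP2A2, SLC24A1 and ATP1B2, as for ATP2B4, control 3 lay with the treated libraries or near them.

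Genes called higher after pre-treatment included RYR2, a calcium release channel of the endoplasmic reticulum and 1 of 11 genes of store release and entry, and MICU2 and MICU3, regulators of the mitochondrial calcium uniporter and 2 of 8 genes of mitochondrial uptake. RYR2 had 1.33 ± 0.356 CPM (SD, n = 2) in controls 1 and 2, 0.663 CPM in control 3 and 3.48 ± 0.112 CPM (SD, n = 3) after H2O2 (log2FC 1.42, SE 0.26, adjusted p = 0.00712). MICU3 had 16.2 ± 1.15 CPM (SD, n = 2), 18.8 CPM and 23.8 ± 1.57 CPM (SD, n = 3) (log2FC 0.58, SE 0.14, adjusted p = 0.0203). For both genes the treated mean was above the level in control 3 too. MICU2 had 25.6 ± 4.20 CPM (SD, n = 2) in controls 1 and 2, 33.6 CPM in control 3 and 35.1 ± 2.86 CPM (SD, n = 3) after H2O2, so control 3 lay near the treated libraries. Its log2FC was 0.48 (SE 0.15, adjusted p = 0.0483) over 5 libraries and 0.31 (adjusted p = 0.570) over 6. Of the 2 calcium buffers tested, CALB1 and CALR, 0 were called.

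In the test of the difference between experiments over 11 libraries, 3 of the 40 were called, where 8.02% of all genes were. ATP2A2 (-1.30, SE 0.26, adjusted p = 0.0143) was lower and MICU3 (0.79, adjusted p = 0.0333) higher in the pre-treatment response than in the co-treatment response. Over 12 libraries 0 of the 40 were called, and 5 had an unadjusted p under 0.05 (8.94% of all genes did).

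**Figure D4:**
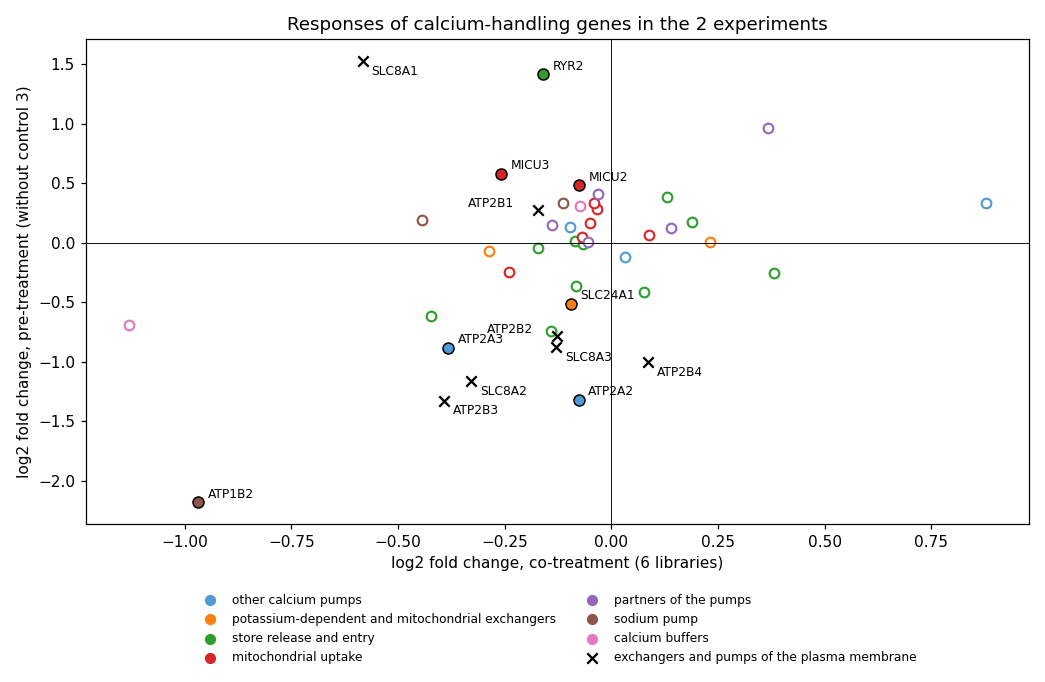
log2 fold change in co-treatment (x axis) and in pre-treatment without control 3 (y axis) of 37 genes of 7 calcium-handling lists (circles, filled where called in pre-treatment) and of the 7 exchanger and pump genes of the plasma membrane (crosses). SLC8A1 and RYR2 stand highest on the y axis (1.53 and 1.42), and ATP1B2 lowest (-2.18).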

How the data were processed

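The 12 libraries were made from total RNA after removal of ribosomal RNA. The authors trimmed reads with Cutadapt 2.10, checked them with FastQC 0.11.8, mapped them to hg19 with HISAT2 2.1.0 and counted them per gene symbol with HTSeq 0.7.2, and deposited the raw counts without normalization. The strand setting and annotation version are not given in the sources used here. The deposited tables of the authors' own comparisons (log2 fold changes, log2 CPM, p-values, FDR) were not used. Entries for uncounted reads were left out of library sizes, and counted totals of 27576276 to 98287391 reads set the precision.

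The members and lists were chosen with earlier results of these data known. The rule for named genes took the 7 members, their overlapping transcripts, genes called in 7 calcium-handling lists (some are not reported here) and the 5 genes most like SLC8A1. Single marker genes and the uncalled ATP2C1, SLC8B1, ATP1B1, ATP1B3, CALB1 and CALR were named after their values were seen. Groups were compared with the quasi-likelihood test of edgeR 4.0.16 in R 4.3.3 and TMM factors, and log2 CPM values used a prior count of 2. A gene was tested if enough libraries to fill the smaller group reached the CPM of 5 counts in the smallest library. Calls are at an FDR (Benjamini-Hochberg over all genes tested) below 0.05. Standard errors were taken from the log2FC and its F value. Levels use TMM factors over all 12 libraries. The pre-treatment comparison left out control 3, with all 6 libraries beside it. The test was tested on simulated data. Alternatives were DESeq2 1.42.0, limma-voom (limma 3.58.1), edgeR's exact test, other scalings, filters and fold limits, a replicate block, and each library left out.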

Additional observations from a re-analysis of the deposited data

Results flagged for a closer look

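The responses of SLC8A3 differed between the experiments by -0.80 and those of ATP2B4 by -1.14 on the log2 scale (pre-treatment minus co-treatment, edgeR's interaction test over 11 libraries, adjusted p = 0.0472 and 0.0235), and neither was called over all 12 libraries (adjusted p = 0.511 and 0.582). Every treated library was below every control for SLC8A1 in co-treatment and above every control in pre-treatment, a difference of 2.06 on the log2 scale. That difference was not tested, because the genes were chosen for it.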

How the results depend on the processing

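Under all alternatives run, the log2FC of SLC8A1 stayed negative in co-treatment (-0.66 to -0.53, 15 alternatives) and positive in pre-treatment (1.31 to 1.57, 15). The difference ran from 1.84 to 2.16 (20). These refits use the values on which the list was selected, so they describe the response and do not test it. Of the other members, the co-treatment log2FC of ATP2B2 ran from -0.31 to 0.31 over the libraries left out, turning positive without control 1, and that of ATP2B4 from -0.084 to 0.36, turning negative without control 3. In pre-treatment, 0 of the 6 tested members were called with control 3, where 6 of 24743 genes were. Without treated replicate 1 or 2, 4 were called, where 3235 of 25957 and 4021 of 25988 genes were. Without treated replicate 3, 6 were called, where 8577 of 25881 genes were. With an absolute log2FC above 1, 3 were called (SLC8A2, ATP2B3 and ATP2B4), where 2952 of 26350 genes were. Under the other tests, scalings and filters 5 were called, where 6276 to 8287 genes were. Leaving out control 1 or 2 leaves 1 control, and some calls rested on each. The log2FC of the 5 members called lower then ran from -1.56 to -0.74. The replicate numbers were not taken to pair the samples, since deviations of same-numbered libraries correlated by -0.0743 to -0.0646 in co-treatment. In pre-treatment they correlated by -0.230, 0.0290 and -0.279 over all 6 libraries, and by -0.00208 and 0.0726 over 5. Over 5 libraries the deviations of controls 1 and 2 mirror each other, so the latter values say little about pairing. With the replicate number as a block, calls over all genes numbered 181 in co-treatment, 10755 in pre-treatment and 2684 for the difference. Without control 3, treated replicate 3 is alone in its block, so the pre-treatment effect in these fits rests on replicates 1 and 2. ATP2B1 was then called higher in pre-treatment (log2FC 0.36, adjusted p = 0.00518), as it was without treated replicate 3. ATP2B3 was called in the difference (adjusted p = 0.0255). Over all genes, co-treatment calls (132) were 338 by DESeq2, 333 by the exact test, 80 with library size alone (57 higher, against 74 of 132) and 535 without a filter. Those of pre-treatment (6871) were 2952 with an absolute log2FC above 1 and 6 with control 3. Those of the difference (2058) were 3386 by DESeq2, 3847 without a filter and 7 with control 3. With single libraries left out, they ranged from 18 (without co-treated replicate 3) to 223 (without control 1), from 1677 (without control 2) to 8577 and from 321 (without pre-treatment control 2) to 4499 (without co-treatment control 1). Without the small RNA loci, an alternative chosen after seeing the data, SLC8A3 was no longer called in the difference (adjusted p = 0.0507). ATP2B3 was called there by DESeq2 (adjusted p = 0.0349), with library size alone (0.0495) and without a filter (0.00903), where SLC8A2 was called too (0.0231). With 3 libraries or fewer in a group, differences well above the standard errors given could go uncalled. That of ATP2B3 between the experiments did (-0.99, SE 0.33, adjusted p = 0.0719, edgeR's interaction test over 11 libraries). A gene that was not called is therefore not shown to be unchanged.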
